A study of Rattus norvegicus with 8 samples.

Results

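Mitochondrial ribosomal protein genes were taken as the rows of the expression table whose symbol starts with Mrpl or Mrps and a digit, and which reached 1 CPM (a read count scaled to the size of its library) or more in at least 4 of the 8 libraries. Of 76 rows with such a symbol 69 met this rule, 42 with Mrpl names (given to large-subunit proteins) and 27 with Mrps names (small-subunit proteins), among 6849 genes past the same filter and 30240 rows in all. The cells were SF2, a rat line of dental epithelium derived from the cervical loop of the mandibular incisor. The 4 AmeloD-overexpressing libraries and the 4 Control libraries covered the plasmid labels pCMV6.ODAM and pCMV6 and the labels TGF and N, each combination being measured in a single library. AmeloD, the product of Ascl5, is a transcription factor that acts in dental epithelium, and Odam encodes an odontogenic ameloblast-associated protein. The labels spell out neither TGF nor N, and they do not say how AmeloD was expressed or whether the cells were 1 clone.

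The mitochondrial ribosome translates the few mRNAs of the mitochondrial genome, which encode core subunits of the respiratory chain and the ATP synthase. Its RNAs are transcribed from mitochondrial DNA, whereas all of its proteins are encoded in the nucleus, made on cytosolic ribosomes and imported. Some of these proteins descend from bacterial ribosomal proteins and others are found only in mitochondria. Ameloblasts, the enamel-secreting cells that arise from the cervical loop epithelium, are rich in mitochondria.

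In AmeloD libraries 9 of the 69 genes rose relative to Control libraries, 0 fell and 60 did not pass the test. The 9 genes were Mrpl1, Mrpl32, Mrps23, Mrpl55, Mrpl27, Mrps18c, Mrpl23, Mrpl34 and Mrps21, with differences of 0.28 to 0.61 in log2(CPM + 1). They made up 13.0% of the genes, and the share of all 6849 genes tested that rose was 9.07% (4.75% fell). Genes called in either direction were 13.0% of the 69 and 13.8% of all genes tested. The higher share of risers depended on the deposited scale. With the libraries rescaled in other ways 7.25% or 5.80% of the 69 rose, against 7.77% or 7.15% of all genes tested. No gene of the 69 passed the test for TGF against N or for pCMV6.ODAM against pCMV6.

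The promoters of 4 of the 9 genes are printed because they differ in the short motifs long linked to nuclear genes for mitochondrial proteins. The sequences are those of RefSeq (assembly GRCr8), from 250 bases before the annotated start to 50 bases from it on, and capitals mark the motif cores found on either strand. The cores searched on both strands were CCGGAAG for the ETS family, which includes the nuclear respiratory factor GABP, GCATGCG for nuclear respiratory factor NRF1 and AAGATGG for YY1. The NRF1 core overlaps its own reverse complement, so that 1 site can match on both strands. Mrpl32 (chr17:55260401-55260700, plus strand) held an NRF1 and a YY1 core, Mrpl27 (chr10:80092095-80092394, plus strand) and Mrps18c (chr14:9122857-9123156, minus strand) each held an ETS core, and Mrpl55 (chr10:44488003-44488302, plus strand) held none of the 3.
Mrpl32: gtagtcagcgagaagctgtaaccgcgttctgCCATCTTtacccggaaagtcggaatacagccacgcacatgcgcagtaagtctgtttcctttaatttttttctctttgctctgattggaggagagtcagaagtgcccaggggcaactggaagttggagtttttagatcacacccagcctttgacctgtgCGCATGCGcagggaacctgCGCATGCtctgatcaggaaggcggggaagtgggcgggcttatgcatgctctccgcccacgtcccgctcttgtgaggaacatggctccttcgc
Mrpl27: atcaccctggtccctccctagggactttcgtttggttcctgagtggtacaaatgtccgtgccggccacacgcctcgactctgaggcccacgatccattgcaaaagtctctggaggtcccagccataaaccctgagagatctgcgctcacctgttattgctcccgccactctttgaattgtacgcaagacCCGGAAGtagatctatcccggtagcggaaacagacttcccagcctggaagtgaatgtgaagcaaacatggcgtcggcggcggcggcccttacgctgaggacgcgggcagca
Mrps18c: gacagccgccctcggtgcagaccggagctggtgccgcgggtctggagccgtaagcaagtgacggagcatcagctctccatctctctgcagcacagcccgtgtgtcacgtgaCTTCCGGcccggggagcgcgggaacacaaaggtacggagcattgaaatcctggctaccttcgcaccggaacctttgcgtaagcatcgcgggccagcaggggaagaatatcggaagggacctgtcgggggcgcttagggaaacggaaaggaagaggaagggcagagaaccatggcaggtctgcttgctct
Mrpl55: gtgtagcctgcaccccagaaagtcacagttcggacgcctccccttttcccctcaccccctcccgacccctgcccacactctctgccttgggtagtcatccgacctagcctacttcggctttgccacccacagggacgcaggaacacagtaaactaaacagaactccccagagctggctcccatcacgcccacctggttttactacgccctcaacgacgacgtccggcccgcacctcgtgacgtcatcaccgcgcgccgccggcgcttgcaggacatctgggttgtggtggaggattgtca

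In the Mrpl27 promoter the ETS core began at base -61 from the start, on the strand of the gene. In the Mrps18c promoter it began at -139 on the other strand. The NRF1 core of Mrpl32 lay at -60 and, on the other strand, at -61 and -42, and its YY1 core lay at -219 on the other strand. RefSeq promoters were matched for 55 of the 69 genes, including all 9 that rose. At least 1 of the 3 cores was present in 31 of the 55 promoters (56.4%) and in 34.3% of the 5168 promoters matched among all genes tested. The ETS core was found in 19 of the 55 (34.5%, against 21.8% of all genes tested), the NRF1 core in 6 (10.9% against 7.37%) and the YY1 core in 15 (27.3% against 9.89%). Most of the YY1 matches lay after the annotated start on the strand of the gene, and the rest before it. Their positions in the other genes tested were not compared. The GC box GGGCGG was found in 27 of the 55 (49.1%), against 66.0% of all genes tested. The median GC content was 55.7% over the 55 promoters and 61.7% over all genes tested.

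Among the 9 genes that rose, the ETS core was present in 4 (Mrpl23, Mrpl27, Mrps18c and Mrps21) and both other cores in Mrpl32 alone. The promoters of Mrpl1, Mrpl34, Mrpl55 and Mrps23 held none of the 3 cores in this window. Among the 46 other matched promoters the ETS core was present in 15, the NRF1 core in 5 and the YY1 core in 14. A match is a string of letters and not a measured binding site.

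The genes were spread over 17 chromosomes, with 12 on chromosome 1 and 11 on chromosome 10. By their coordinates in mRatBN7.2, the build of the table, 24 of the 69 (34.8%) had another gene starting on the opposite strand within 1000 bases of their own start, against 17.6% of all genes tested. A further gene overlapped 28 of the 69, on the other strand for 24 and on the same strand for 6. The sources used here do not state whether strand was used in counting, so reads of overlapping genes cannot be told apart. Mrpl46 and Mrps11, both among the 69, overlap on opposite strands.

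The level of the 69 genes varied widely. Over the 8 libraries they had 100 to 23988 reads each, with a median of 1036. Mean CPM was 0.889 to 213, with a median of 9.26, and 33 genes were at 10 CPM or more while 25 were under 5 CPM. Per kilobase of annotated exon length the mean CPM was 0.386 to 133, with a median of 5.60. By this measure Mrps21 (133 CPM per kb), Mrpl54 (114) and Mrpl23 (97.0) were highest and Mrps2 (0.386), Mrpl47 (0.411) and Mrpl37 (0.592) lowest. The libraries were made with a kit that reads the 3' ends of transcripts, so a level per kilobase also depends on how the 3' end is annotated. The 10 genes with most reads held 63.6% of the reads of all 69.

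The rule's threshold fell among genes of few reads. Of the 69 genes 62 were at 1 CPM or more in all 8 libraries and 7 in 4 to 7 libraries, and for 0 of these 7 did all the passing libraries belong to 1 genotype or 1 plasmid. For 1 of them, Mrps2, all the passing libraries were TGF libraries. Nearest inside the rule were Mrps2 (4 libraries, 100 reads in all), Mrpl44 (6 libraries, 144 reads) and Mrpl3 (6 libraries, 148 reads). Nearest outside it were Mrpl38 (3 libraries, 117 reads), Mrps21l (1 library, 98 reads), whose symbol marks it as a copy related to Mrps21, and Mrpl40 (1 library, 77 reads). The other rows outside it were Mrps31, a pseudogene row Mrpl42-ps2 and a pair of rows named Mrps17, with 75, 20, 12 and 3 reads. Mrpl11 and Mrpl24 are not analysed here.

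Summed over the 69 genes, the level was 2064, 1980, 2094 and 1837 CPM in the AmeloD libraries, listed as pCMV6.ODAM with TGF, pCMV6 with TGF, pCMV6.ODAM with N and pCMV6 with N, an order used for all values below. In Control libraries it was 1930, 1741, 1757 and 1822 CPM. The groups overlapped on this scale, the AmeloD pCMV6 library with N lying below the Control pCMV6.ODAM library with TGF. The sum averaged 1994 ± 115 CPM in AmeloD and 1813 ± 86.0 CPM in Control libraries (SD, n = 4 each). As a share of the reads in the table it was 1.20 ± 0.0385% in AmeloD and 1.11 ± 0.0225% in Control libraries, and these groups did not overlap (1.17% to 1.26% against 1.08% to 1.14%). The 42 Mrpl genes summed to 1307 ± 69.1 CPM in AmeloD and 1200 ± 70.2 CPM in Control libraries. For the 27 Mrps genes the sums were 686 ± 48.4 CPM in AmeloD and 613 ± 19.9 CPM in Control libraries.

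The library totals were 10568146 to 17775226 reads, of which 15.6% to 17.5% lay in the table. A count of 0 allowed up to 3 reads, which is 0.169 to 0.284 CPM, for counting error only. Ascl5 had 0 reads in AmeloD and 0 in Control libraries, so the genotype label was not checked by its own gene, and Odam had 31 reads in pCMV6.ODAM and 1 in pCMV6 libraries. Of the 31, 4 were in AmeloD and 27 in Control libraries. Of 12 epithelial markers 11 had a row in the expression table, Krt14 having none under that symbol. Of these 10 were tested, and 6 rose and 1 fell, where 9.07% of all genes tested rose and 4.75% fell. The summed level of the 11 was 1014 to 1096 CPM in AmeloD and 642 to 781 CPM in Control libraries. Krt18 was at 0 in every library. The 12 fibroblast markers, 6 of them at 0 in all libraries, summed to 17.9 to 27.9 CPM in AmeloD and 35.1 to 66.2 CPM in Control libraries, mostly Col3a1. Of 12 leukocyte markers 7 were at 0 and the sum was 2.77 to 3.78 CPM in AmeloD and 0.876 to 1.63 CPM in Control libraries, mostly Cd68. The odontoblast and bone list stayed at 0.219 to 0.832 CPM in AmeloD and 0.225 to 0.563 CPM in Control libraries, with 4 of 9 markers at 0. The endothelial list stayed at 0.593 to 2.12 CPM in AmeloD and 1.01 to 2.01 CPM in Control libraries, with 3 of 8 at 0. The part of these lists in the genotype differences of the mitochondrial ribosomal protein genes was not tested.

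The comparison of AmeloD with Control libraries asked which genes differ in cells overexpressing AmeloD. It was fitted over all 8 libraries with plasmid and TGF as further terms, which left 4 residual degrees of freedom. Since no combination was replicated, p-values rest on the spread between these single libraries. The test also borrows the spread of other genes of similar level, which gave 24.2 total degrees of freedom. An SE or p is thus not drawn from a gene's own libraries alone. The 69 genes had a median difference of 0.11 in log2(CPM + 1) and a range of -0.52 to 0.61, and the median over all genes tested was 0.05. The difference was above 0 for 47 genes and below 0 for 22. Without adjustment 21 of the 69 (30.4%) had a p under 0.05, as did 27.0% of all genes tested. In every one of the 4 pairs matched for plasmid and TGF, 21 of the 69 (30.4%) were higher in the AmeloD library and 3 (4.35%) lower, against 20.6% and 12.6% of all genes tested. The 4 AmeloD libraries all lay above the 4 Control libraries for 11 of the 69, where 9.49% of all genes tested did so, and all below for 0, where 5.53% did.

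**Figure D1:**
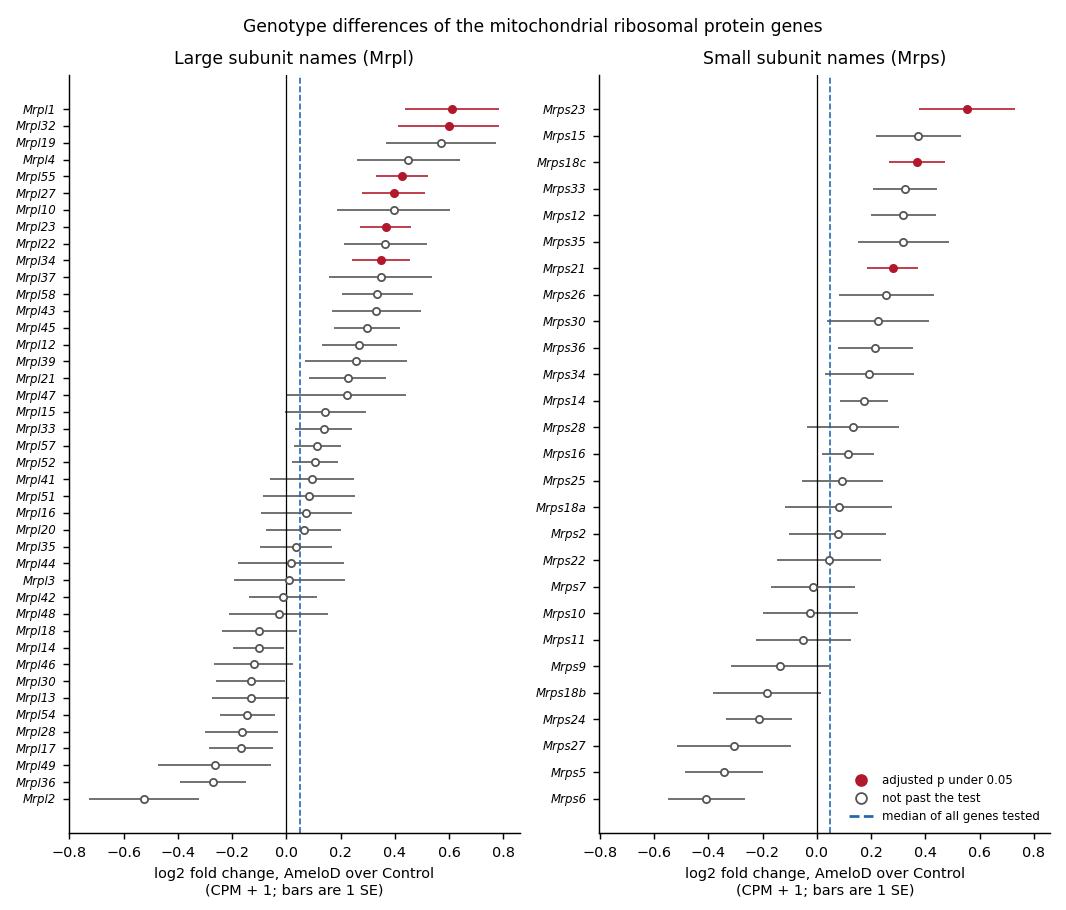
Log2 fold change of AmeloD over Control, on the CPM + 1 scale, for the 42 Mrpl genes (left) and the 27 Mrps genes (right), with bars of 1 SE from the limma fit over 8 libraries. Filled red points are the 9 genes with an adjusted p under 0.05, all above 0, and the dashed line is the median of all genes tested, 0.05.

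The direction of calls depended on the scaling of the libraries. With TMM factors (trimmed mean of M-values) 5 of the 69 (7.25%) rose and 1 fell, where 7.77% and 6.92% of all genes tested did. With every library set to the same median 4 (5.80%) rose and 3 fell, where 7.15% and 7.45% of all genes tested did. Of all genes called, 65.6% were higher in AmeloD on the deposited scale, 52.9% with TMM factors and 49.0% with equal medians. On the recovered reads 4 rose and 1 fell with edgeR (7.58% and 6.40% of all genes tested), and 3 rose and 1 fell with DESeq2 (6.04% and 5.30%). In either direction edgeR called 7.25% of the 69 and 14.0% of all genes tested, and DESeq2 5.80% and 11.3%. The median of the 69 lay above that of all genes tested by 0.06 as deposited and by 0.05 to 0.06 under these alternatives. Equal medians shift all genes of a library alike, so they leave this difference unchanged by construction, and nothing is read from that value. Without 1 library it lay above by 0.03 to 0.10, the lowest value being that without the AmeloD library of pCMV6.ODAM with N. The number of the 69 called without 1 library was 3 to 8. It was 3 without the Control library of pCMV6.ODAM with N or that of pCMV6 with TGF, 4 without the AmeloD library of pCMV6.ODAM with N and 5 without the AmeloD library of pCMV6 with TGF. Of all genes tested 9.37% were called without either of those Control libraries, 11.1% without that first AmeloD library and 12.2% without the second, against 13.8% over 8 libraries. In the matched pairs the median of the 69 minus that of all genes was 0.05 for pCMV6.ODAM with TGF, 0.08 for pCMV6 with TGF, 0.16 for pCMV6.ODAM with N and -0.02 for pCMV6 with N.

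Mrpl55 and Mrpl23 kept their call under both scalings and both count tests, and lost it under other alternatives. Mrpl55 encodes a large-subunit protein found only in mitochondria. It had 94.2, 89.3, 97.3 and 83.3 CPM in AmeloD libraries, against 70.4, 64.5, 66.4 and 68.5 CPM in Control libraries. The lowest AmeloD value was thus above the highest Control value. The means were 91.0 ± 6.13 CPM in AmeloD and 67.4 ± 2.56 CPM in Control libraries, and the log2 fold change was 0.43 ± 0.0968 (SE, adjusted p = 0.00335). Mrpl55 lost its call in 1 of 19 alternatives, the TGF libraries alone (adjusted p = 0.0808).

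Mrpl23 encodes the counterpart of a bacterial protein at the exit of the nascent peptide tunnel. It was at 112, 117, 131 and 115 CPM in AmeloD libraries, against 93.1, 83.1, 92.8 and 98.4 CPM in Control libraries. The groups did not overlap, and the log2 fold change was 0.37 ± 0.0941 (SE, adjusted p = 0.00910). Without the Control library of pCMV6.ODAM with N or that of pCMV6 with TGF its adjusted p was over 0.05, at most 0.0601, and the call was also lost when either set was fitted by itself, N (adjusted p = 0.0675) or TGF (adjusted p = 0.149).

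Mrps18c is 1 of 3 paralogs of bacterial S18 in mammals, the others being Mrps18a and Mrps18b. Its levels were 70.2, 54.4, 66.0 and 54.2 CPM in AmeloD libraries, against 50.9, 44.9, 47.5 and 44.5 CPM in Control libraries. All AmeloD values lay above all Control values, and within each genotype both pCMV6.ODAM libraries were higher than both pCMV6 libraries. The log2 fold change was 0.37 ± 0.103 (SE, adjusted p = 0.0161), and the call was lost with edgeR. It was also lost without the AmeloD or the Control library of pCMV6.ODAM with N (adjusted p at most 0.0812). Mrps18b was at 2.73 ± 1.01 CPM in AmeloD and 3.13 ± 0.484 CPM in Control libraries (SD, n = 4 each), with a log2 fold change of -0.18 ± 0.198 (SE, adjusted p = 0.615). Mrps18a, whose protein sits in the large subunit despite its name, was at 2.89 ± 0.911 CPM in AmeloD and 2.69 ± 0.927 CPM in Control libraries, a log2 fold change of 0.08 ± 0.197 (SE, adjusted p = 0.847). The differences between these paralogs were not tested.

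The largest log2 fold changes belonged to genes of few reads. Mrpl1, whose protein forms part of the stalk through which spent transfer RNA leaves the ribosome, was at 5.93, 3.70, 4.38 and 2.46 CPM in AmeloD libraries, against 3.18, 2.19, 2.03 and 1.75 CPM in Control libraries. The groups overlapped, although in each matched pair the AmeloD library was higher. It rested on 206 reads in AmeloD and 146 in Control libraries, and its log2 fold change was 0.61 ± 0.173 (SE, adjusted p = 0.0186). The call was lost with DESeq2, without either AmeloD pCMV6.ODAM library, and without the Control library of pCMV6.ODAM with N or of pCMV6 with TGF (adjusted p at most 0.0891 without a library).

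Mrpl32 encodes a protein that is trimmed by a protease of the inner mitochondrial membrane before it joins the large subunit. It was at 2.85, 2.40, 1.63 and 3.22 CPM in AmeloD libraries, against 1.23, 1.35, 1.22 and 1.38 CPM in Control libraries. The groups did not overlap, with 121 reads in AmeloD and 83 in Control libraries, and the log2 fold change was 0.60 ± 0.187 (SE, adjusted p = 0.0332). It kept its call with TMM factors and with edgeR but not with equal medians or DESeq2. The call was lost without any 1 of the 4 Control libraries, without the AmeloD library of pCMV6 with N, and without that of pCMV6.ODAM with TGF (adjusted p at most 0.153).

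Mrps23 encodes a small-subunit protein found only in mitochondria. It was at 4.90, 3.33, 4.15 and 2.46 CPM in AmeloD libraries, against 2.14, 2.03, 2.44 and 2.00 CPM in Control libraries. The lowest AmeloD and highest Control values were close, and the log2 fold change was 0.55 ± 0.178 (SE, adjusted p = 0.0389). With TMM factors, equal medians, edgeR or DESeq2 Mrps23 did not pass the test, nor did it without any 1 library other than the pCMV6 libraries with N (adjusted p at most 0.127).

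Mrpl27, Mrpl34 and Mrps21 also lost their calls under these 4 alternatives. Mrpl27, whose bacterial counterpart reaches into the peptidyl transferase centre, was at 34.0, 34.1, 35.5 and 31.4 CPM in AmeloD libraries, against 22.9, 23.6, 28.4 and 27.1 CPM in Control libraries. The groups did not overlap, the TGF libraries of Control being the lowest, and the log2 fold change was 0.40 ± 0.116 (SE, adjusted p = 0.0221). Mrpl34, a small large-subunit protein with a bacterial counterpart, was at 69.1, 79.3, 77.9 and 71.7 CPM in AmeloD libraries, against 68.1, 61.3, 50.2 and 54.5 CPM in Control libraries. The pCMV6.ODAM libraries with TGF were nearly level, and the log2 fold change was 0.35 ± 0.107 (SE, adjusted p = 0.0291). Mrps21, the counterpart of bacterial S21, was at 128, 139, 141 and 120.5 CPM in AmeloD libraries, against 114, 106, 111 and 104 CPM in Control libraries. All AmeloD values were above all Control values, and the log2 fold change was 0.28 ± 0.0926 (SE, adjusted p = 0.0453). Leaving out a single library ended the call of Mrpl27 in 5 of 8 cases (all but both Control libraries with N and the AmeloD library of pCMV6 with N), that of Mrpl34 in 6 (all but both pCMV6.ODAM libraries with TGF) and that of Mrps21 in 7 (all but the AmeloD library of pCMV6.ODAM with TGF). The adjusted p without a library was at most 0.0985 for Mrpl27, 0.156 for Mrpl34 and 0.194 for Mrps21. The sources used here do not say how reads shared with Mrps21l were counted.

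**Figure D2:**
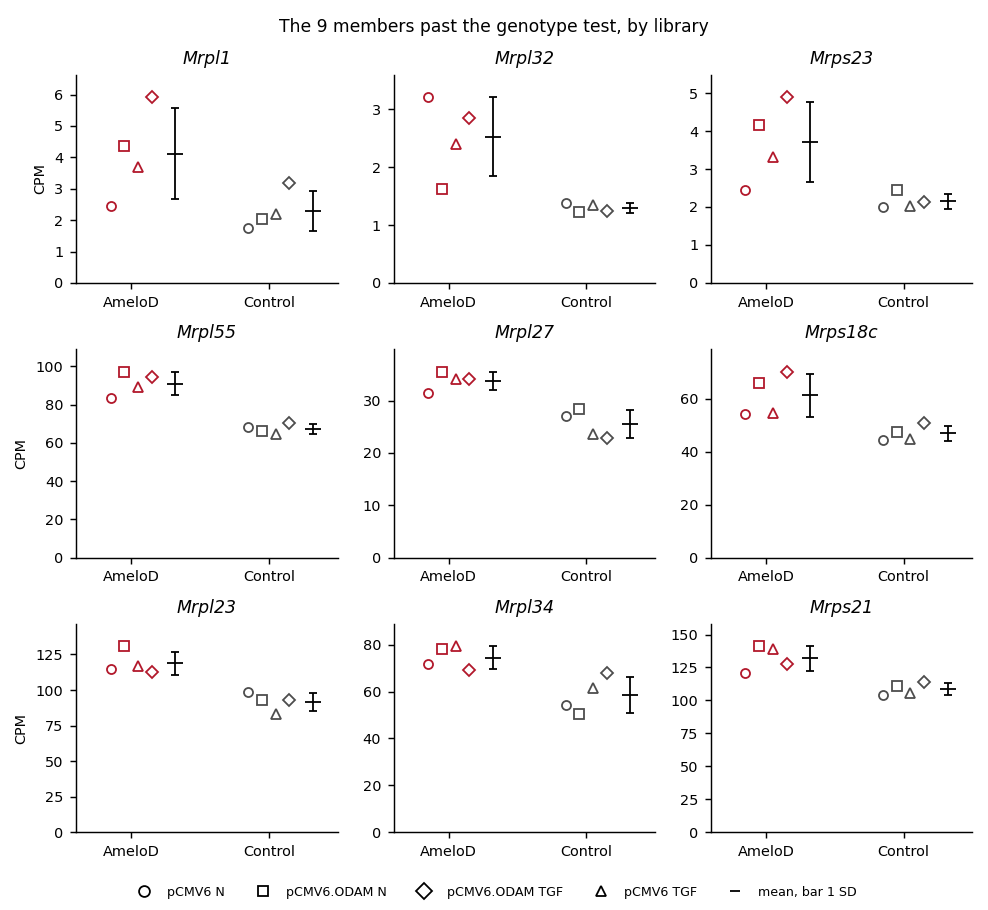
CPM of the 9 genes that rose, by library, with AmeloD (red) left of Control (grey), symbols for plasmid and TGF label, and the mean with bars of 1 SD (n = 4 each). AmeloD and Control values overlap for Mrpl1, where they meet between 2.46 and 3.18 CPM, and not for the other 8.

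No gene of the 69 fell as deposited, and the 3 lowest differences belonged to counterparts of bacterial proteins. Mrpl2, whose bacterial counterpart lies close to the peptidyl transferase centre, was at 2.63, 0.832, 2.52 and 1.32 CPM in AmeloD libraries, against 3.12, 2.64, 2.44 and 3.50 CPM in Control libraries. The groups overlapped at the pCMV6.ODAM libraries, and the log2 fold change was -0.52 ± 0.203 (SE, adjusted p = 0.0879). Mrpl2 passed the test as lower with equal medians, without the AmeloD library of pCMV6.ODAM with TGF and without the Control library of pCMV6.ODAM with N. Mrps6 was at 11.6, 11.2, 10.2 and 8.89 CPM in AmeloD libraries, against 15.99, 11.4, 14.1 and 15.6 CPM in Control libraries. Its AmeloD value was the lower in all 4 matched pairs, and its log2 fold change was -0.41 ± 0.142 (SE, adjusted p = 0.0577). Mrps6 passed the test as lower with TMM factors, equal medians, edgeR and DESeq2, with the matched pairs as a block (adjusted p = 0.0468), without the Control library of pCMV6 with TGF (adjusted p = 0.0300) and in the N libraries alone (adjusted p = 0.0201). Mrps5, whose bacterial counterpart takes part in the accuracy of decoding, was at 39.2, 22.5, 26.9 and 23.5 CPM in AmeloD libraries, against 29.4, 33.4, 37.7 and 40.3 CPM in Control libraries. The pCMV6.ODAM pair with TGF ran against the other 3 pairs, and the log2 fold change was -0.34 ± 0.144 (SE, adjusted p = 0.122). Mrps5 passed the test as lower without either pCMV6.ODAM library with TGF and in the N libraries alone (adjusted p = 0.00204).

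Mrps12, Mrpl58, Mrpl45, Mrpl12 and Mrps27, named as landmarks, did not pass the test over 8 libraries. Mrps12, the decoding-centre protein, was at 41.6 ± 5.20 CPM in AmeloD and 33.1 ± 2.55 CPM in Control libraries (SD, n = 4 each), with a log2 fold change of 0.32 ± 0.119 (SE, adjusted p = 0.0761). It passed without the AmeloD or the Control library of pCMV6 with N. Mrpl58, a peptidyl-tRNA hydrolase built into the large subunit, was at 18.8 ± 2.89 CPM in AmeloD and 14.6 ± 0.428 CPM in Control libraries, a log2 fold change of 0.33 ± 0.132 (SE, adjusted p = 0.0931). For Mrpl58 the groups did not overlap. Mrpl45, which holds the ribosome at the inner membrane, was at 45.0 ± 7.79 CPM in AmeloD and 36.3 ± 5.42 CPM in Control libraries, with a log2 fold change of 0.30 ± 0.121 (SE, adjusted p = 0.108), and it passed without the Control library of pCMV6.ODAM with TGF and in the N libraries alone (adjusted p = 0.0269). Mrpl12, a stalk protein that also binds the mitochondrial RNA polymerase, had a log2 fold change of 0.27 ± 0.139 (SE, adjusted p = 0.219). Mrps27, a protein of the pentatricopeptide repeat family, was at 2.31 ± 0.985 CPM in AmeloD and 3.02 ± 0.811 CPM in Control libraries, and its log2 fold change was -0.31 ± 0.209 (SE, adjusted p = 0.380).

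The 3 genes with the highest mean CPM did not pass the test. Mrpl52, a large-subunit protein found only in mitochondria, was at 221 ± 21.4 CPM in AmeloD and 206 ± 22.7 CPM in Control libraries, a log2 fold change of 0.11 ± 0.0850 (SE, adjusted p = 0.468). Mrpl57 was at 182 ± 16.6 CPM in AmeloD and 168 ± 9.93 CPM in Control libraries, a log2 fold change of 0.11 ± 0.0868 (SE, adjusted p = 0.440). Mrps14 was at 166 ± 12.1 CPM in AmeloD and 147 ± 5.96 CPM in Control libraries, a log2 fold change of 0.17 ± 0.0894 (SE, adjusted p = 0.216). The 95% intervals of these log2 fold changes were -0.07 to 0.28 for Mrpl52, -0.07 to 0.29 for Mrpl57 and -0.01 to 0.36 for Mrps14.

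By name, 6 of 42 Mrpl and 3 of 27 Mrps genes rose and 0 fell in either, with median differences of 0.11 and 0.12. Of all genes tested 9.07% rose and 4.75% fell. By descent, in a grouping made with these values known, 7 of 43 proteins with a bacterial counterpart rose and 2 of 25 found only in mitochondria did (Mrpl55 and Mrps23). The medians were 0.08 for the first group and 0.11 for the second. The differences between the groups by name or by descent were not tested, and these counts are small beside the 9.07% of all genes tested that rose. Mrps36, now known as a subunit of the 2-oxoglutarate dehydrogenase complex and not of the ribosome, had a log2 fold change of 0.22 ± 0.137 (SE, adjusted p = 0.337). Of the 33 genes with a mean of 10 CPM or more 6 rose (18.2%), where 14.0% of the 1532 genes tested at that level did. Among 36 genes under 10 CPM 3 rose (8.33%), against 7.65% of 5317 genes.

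The 4 N libraries and the 4 TGF libraries share no sample, so each set gives its own genotype difference. The median over the 69 genes was 0.14 in the TGF libraries and 0.14 in the N libraries, where all genes tested had 0.05 and 0.06. The sign was the same in both sets for 50 of the 69 (72.5%), 36 above 0 and 14 below, against 67.7% of all genes tested. As a description across the 69 genes, Pearson's r between the sets was 0.40 and Spearman's rho 0.45. Over all genes tested r was 0.65. Mrpl55 (0.44 with TGF and 0.41 with N), Mrpl23 (0.38 and 0.36), Mrps18c (0.36 and 0.37) and Mrps21 (0.28 and 0.28) were close in the sets, whereas Mrpl34 was at 0.19 with TGF and 0.51 with N. All of these were picked by the fit over both sets, which favours genes that are close in them, so nothing is read from this closeness. Fitted on a set alone, with 1 residual degree of freedom, none of the 9 genes passed in the TGF libraries, and Mrpl34 and Mrpl55 did in the N libraries, where Mrpl45 and Mrpl47 also rose and Mrps5, Mrps6 and Mrpl49 fell. Mrpl19, which did not pass the test over 8 libraries, was at 1.02 with TGF and 0.12 with N, and it passed without the AmeloD library of pCMV6.ODAM with N.

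**Figure D3:**
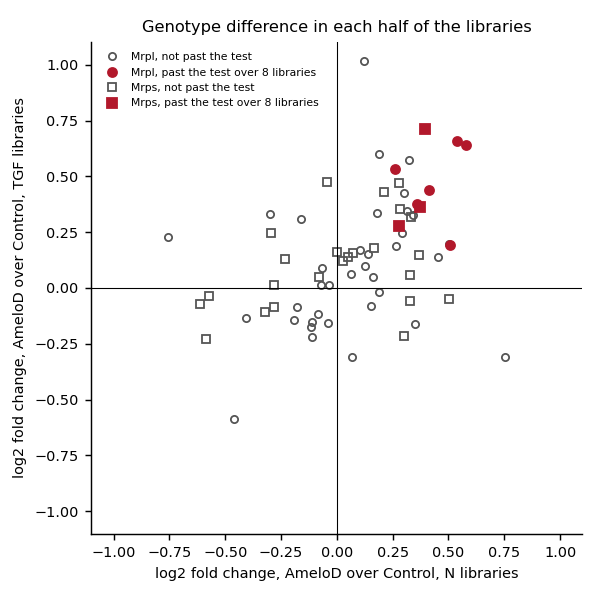
Genotype log2 fold change of each of the 69 genes in the N libraries (horizontal axis) and in the TGF libraries (vertical axis), on the CPM + 1 scale, with circles for Mrpl and squares for Mrps. The 9 filled red points, which passed the test over 8 libraries, lie above 0 on both axes, and 50 of the 69 points have the same sign on both axes. The 9 were picked with both sets in the fit, so their position is not separate evidence.

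Cytosolic ribosomal protein genes and nuclear genes of oxidative phosphorylation are the nearest comparators by function. Of 121 rows taken by name as cytosolic ribosomal protein genes 9 rose and 5 fell, with a median of 0.00 in log2(CPM + 1). The name pattern also admits pseudogenes and related copies, so these values are not of functional genes alone. Of 85 oxidative phosphorylation genes 7 rose and 5 fell, with a median of 0.06. Over all genes tested 9.07% rose and 4.75% fell. The difference between these lists and the mitochondrial ribosomal protein genes was not tested. In the library medians, taken around each gene's own mean, the 69 genes were at 0.13, 0.10, 0.10 and -0.04 in AmeloD libraries and at 0.04, -0.14, -0.09 and -0.07 in Control libraries. All genes tested were at 0.08, 0.02, -0.01 and 0.03 in AmeloD libraries and at 0.07, -0.08, -0.08 and -0.01 in Control libraries.

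**Figure D4:**
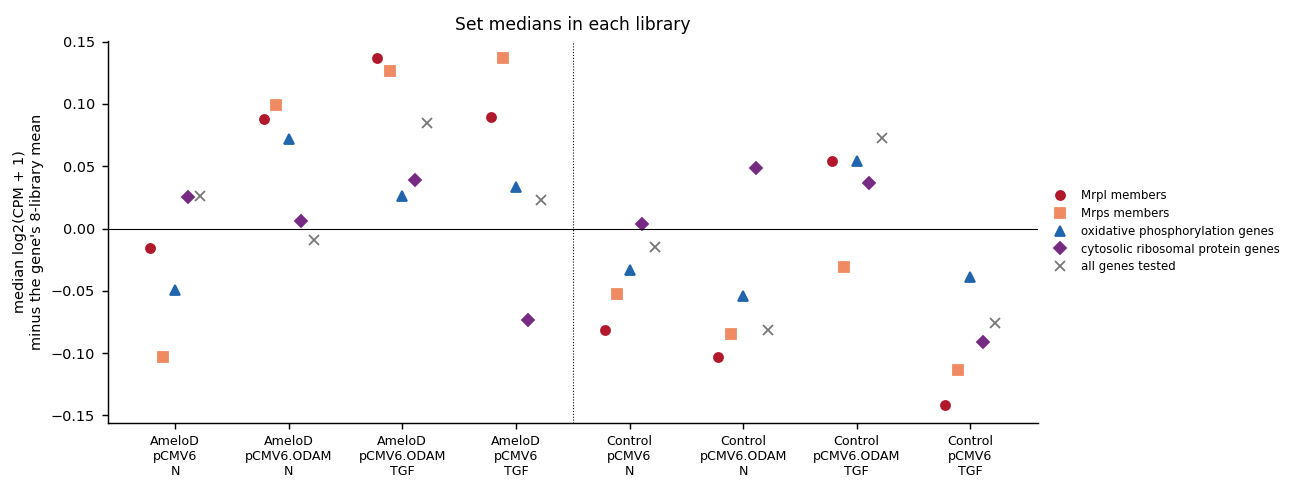
Median, over the genes of each set, of log2(CPM + 1) minus the gene's mean over 8 libraries, for each AmeloD (left) and Control (right) library. Mrpl and Mrps genes lie above 0 in 3 of 4 AmeloD libraries while Mrpl genes lie below 0 in 3 and Mrps genes in 4 of the 4 Control libraries. Oxidative phosphorylation genes and all genes tested likewise lie above 0 in 3 of 4 AmeloD and below 0 in 3 of 4 Control libraries. Cytosolic ribosomal protein genes lie above 0 in 3 of 4 libraries of each genotype.

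The rest of the machinery of mitochondrial translation was mostly measured at few reads. Of 4 tested mitochondrial ribosome subunits named outside the Mrpl and Mrps pattern (Dap3, Ptcd3, Chchd1 and Gadd45gip1) 0 rose and 0 fell, with log2 fold changes of -0.05 to 0.40. In a list of translation factors that also held the insertase gene Oxa1l, 2 of 8 tested genes rose, where 9.07% of all genes tested did. Tufm, the elongation factor that brings transfer RNA to the ribosome, was at 9.83 ± 2.23 CPM in AmeloD and 6.68 ± 0.344 CPM in Control libraries (SD, n = 4 each), a log2 fold change of 0.48 ± 0.157 (SE, adjusted p = 0.0442). Oxa1l, the inner-membrane insertase that receives the new proteins, was at 4.16 ± 0.838 CPM in AmeloD and 2.45 ± 0.573 CPM in Control libraries, a log2 fold change of 0.58 ± 0.183 (SE, adjusted p = 0.0345). None of 13 tested assembly and RNA modification factors, of 13 genes for the upkeep of the mitochondrial genome and its transcripts, or of 8 regulators of mitochondrial biogenesis passed the test. Of 4 aminoacyl-tRNA synthetase genes Gars1, which serves the cytosol as well, rose with a log2 fold change of 0.54 ± 0.129 (SE, adjusted p = 0.00568).

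Of 19 genes used as measures of mitochondrial content 2 rose and 3 fell, where 9.07% of all genes tested rose and 4.75% fell. The risers were Cs, citrate synthase (log2 fold change 0.45 ± 0.151, adjusted p = 0.0480), and Phb1, a prohibitin (0.45 ± 0.139, adjusted p = 0.0311). Those that fell were the chaperone pair Hspe1 (-0.48 ± 0.0850) and Hspd1 (-0.37 ± 0.123) and the import receptor Tomm20 (-0.55 ± 0.130). The summed level of the list was 454 to 498 CPM in AmeloD and 580 to 605 CPM in Control libraries, most of it Hspe1. In bulk samples, more cells of a type and more RNA per cell cannot be told apart.

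Neighbouring genes were compared because a shared start region or shared reads can join the values of adjacent genes. Mrpl32 starts 117 bases from Psma2, a proteasome subunit gene, which was at 6.81 ± 0.815 CPM in AmeloD and 5.19 ± 0.389 CPM in Control libraries (log2 fold change 0.33 ± 0.151, adjusted p = 0.155). Mrpl27 starts 44 bases from Eme1, which had a log2 fold change of -0.37 ± 0.192 (SE, adjusted p = 0.217). Mrpl27 also overlaps Lrrc59 on the same strand, which was at 8.09 ± 1.64 CPM in AmeloD and 5.89 ± 0.898 CPM in Control libraries (log2 fold change 0.39 ± 0.155, adjusted p = 0.0951). Abhd8 on the other strand of Mrpl34 and Abraxas1 on the other strand of Mrps18c averaged under 1 CPM in both genotypes. Of 13 opposite-strand neighbours that were tested 0 rose and 3 fell, where 9.07% of all genes tested rose and 4.75% fell. The 3 that fell were Mitd1 beside Mrpl30, Ndufs6l1 beside Mrpl36 and LOC687780 beside Mrpl49. Of the 13 neighbours 8 had the sign of the mitochondrial ribosomal protein gene beside them.

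TGF against N addressed the response to that label, with genotype and plasmid as further terms. Of the 69 genes 0 passed the test, where 1.81% of all genes tested passed (1.53% higher and 0.277% lower), and 6 of the 69 (8.70%) had an unadjusted p under 0.05, as did 11.9% of all genes tested. With edgeR and with DESeq2 0 of the 69 passed as well. The median difference was 0.04 in log2(CPM + 1), equal at this precision to the 0.04 over all genes tested. The TGF libraries all lay below the N libraries for 1 gene (Mrps11), where 1.15% of all genes tested did so. They all lay above for 1 (Mrps2), where 3.11% did, but Mrps2 met the filter at 1 CPM only through its 4 TGF libraries, which fixes that order, so nothing is read from it. The 95% intervals of the 69 genes ran between -0.70 and 0.83. Mrps2 had the largest value above 0, given as a description. It was at 1.17, 1.39, 1.17 and 1.01 CPM in the TGF libraries, listed as AmeloD pCMV6.ODAM, AmeloD pCMV6, Control pCMV6.ODAM and Control pCMV6, against 0.742, 0.473, 0.406 and 0.751 CPM in the matching N libraries. It had 67 reads in TGF and 33 in N libraries, and the log2 fold change was 0.46 ± 0.180 (SE, adjusted p = 0.256). Mrpl48 followed at 3.82 ± 0.561 CPM in TGF and 2.74 ± 0.664 CPM in N libraries, a log2 fold change of 0.38 ± 0.182 (SE, adjusted p = 0.414). The values farthest below 0 were those of Mrps26, at 3.27 ± 0.732 CPM in TGF and 4.40 ± 0.865 CPM in N libraries (log2 fold change -0.34 ± 0.176, adjusted p = 0.464), and Mrps11, at 2.51 ± 0.212 CPM in TGF and 3.36 ± 0.463 CPM in N libraries (-0.31 ± 0.175, adjusted p = 0.518).

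For pCMV6.ODAM against pCMV6, 0 of the 69 genes passed the test, and 0.0% of all genes tested passed. Odam itself had 4 reads in the AmeloD and 27 in the Control pCMV6.ODAM libraries, against 0 and 1 in the pCMV6 libraries. The plasmid label was thus little checked by its own gene, least in AmeloD libraries. Without adjustment 4 of the 69 (5.80%) had a p under 0.05, as did 6.63% of all genes tested. With edgeR 0 of the 69 and 0 of all genes passed, and with DESeq2 0 of the 69 and 1 of all genes. The median difference was 0.07 in log2(CPM + 1), against 0.03 over all genes tested. Only Mrpl15 was higher in all 4 pCMV6.ODAM libraries than in all 4 pCMV6 libraries, where 1.43% of all genes tested were so, and 0 of the 69 were lower in this way, where 0.628% were. Mrpl15, a large-subunit protein with a bacterial counterpart, was at 10.2 ± 1.35 CPM in pCMV6.ODAM and 7.44 ± 1.13 CPM in pCMV6 libraries, with a log2 fold change of 0.42 ± 0.149 (SE, adjusted p = 0.710). Mrpl1 was at 3.88 ± 1.67 CPM in pCMV6.ODAM and 2.53 ± 0.833 CPM in pCMV6 libraries, a log2 fold change of 0.43 ± 0.173 (SE, adjusted p = 0.710). On the other side were Mrps15, at 9.34 ± 2.10 CPM in pCMV6.ODAM and 12.3 ± 2.52 CPM in pCMV6 libraries (log2 fold change -0.36 ± 0.155, adjusted p = 0.710), and Mrpl22, at 5.55 ± 0.817 CPM in pCMV6.ODAM and 6.73 ± 1.41 CPM in pCMV6 libraries (-0.23 ± 0.152, adjusted p = 0.812).

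Whether 1 factor changed the effect of another was tested for the 3 pairs of factors, with 3 residual degrees of freedom. None of the 69 genes passed in the interaction of genotype with TGF, where 0.0146% of all genes tested did, nor in those of genotype with plasmid or plasmid with TGF, where 0.0% did. Without adjustment 3, 4 and 0 of the 69 had a p under 0.05, against 4.12%, 4.50% and 7.36% of all genes tested. Both edgeR and DESeq2 called 0 of the 69 in each interaction. Mrpl47, a large-subunit gene, had the lowest p for genotype with TGF, a log2 interaction of -1.06 ± 0.393 (SE, adjusted p = 0.999), and it was chosen for mention after its value was seen. The 3 unadjusted ones were Mrpl47, Mrpl49 and Mrpl19.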

How the data were processed

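Total RNA was read from the 3' end of transcripts in 8 libraries of SF2 cells. The authors deposited a table of CPM per gene and library, scaled to library totals that the table does not hold in full. The unscaled column of exon length in bases is the authors', per the file headers. Reads were aligned to mRatBN7.2 with STAR 2.7.10a and counted with featureCounts 2.0.1, after Trim Galore 0.6.7, Trimmomatic 0.39 and cutadapt 3.7, per the submitters' processing notes. The sources used here do not state the strand setting, the use of molecular identifiers or the handling of shared reads. All deposited values (100%) came out as whole reads within 0.01. On those reads edgeR 4.0.16 called 957 genes and DESeq2 1.42.0 called 777 between genotypes.

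The main test was limma 3.58.1 (R 4.3.3) on log2(CPM + 1), two-sided, with an intensity trend, additive terms for genotype, plasmid and TGF, and Benjamini-Hochberg adjustment over the 6849 genes with 1 CPM or more in at least 4 libraries (threshold 0.05). It was also run on simulated counts with 1 fixed spread and no plasmid, TGF or scaling differences. That run does not show how the test behaves where such differences are present. Genes named were the 8 largest rises, the 3 or 2 largest values per direction where fewer passed, the 3 highest in CPM, those nearest the filter, and chosen landmarks. Mrps21, the ninth riser, was added. The genes and lists were chosen with earlier results of these data known. Library sets, scalings, filters, a pseudocount of 0.5 and count tests were tried as alternatives.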

Additional observations from a re-analysis of the deposited data

Results flagged for a closer look

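In a group of 4 libraries, 1 value was marked when its gap to the nearest other value exceeded Dixon's 95% critical share of the group's range, a rule that chance meets in about 5% of groups. Of 62 groups, 2 were marked. Mrpl22 was at 4.42 CPM in the Control pCMV6.ODAM library with TGF, where the other Control libraries were at 5.46 to 5.57 CPM. Mrps18a was at 4.25 CPM in the AmeloD pCMV6 library with TGF, where the other AmeloD libraries were at 2.30 to 2.56 CPM.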

How the results depend on the processing

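The number of mitochondrial ribosomal protein genes called between AmeloD and Control, 9 as deposited (13.8% of all genes tested were called), was 6 with TMM factors (14.7%), 7 with equal medians (14.6%), 9 with a pseudocount of 0.5 (13.7%) and 8 of 46 with at least 5 CPM in 4 libraries (7 rose and 1 fell, where 22.4% of 2707 genes were called). In the N libraries alone it was 7 (10.9% of all genes), of which 4 rose, 2 of them among the 9, and 3 fell. It was 5 with no filter on low values (4.34% of 17287 genes), 5 with edgeR (14.0%), 4 with DESeq2 (11.3%) and 4 with no covariates (10.1%). In the TGF libraries alone it was 1 (6.38%), Mrpl19, which is not among the 9. The fits of the N or TGF libraries alone have 1 residual degree of freedom. Leaving out 1 library gave 3 to 8, and 9.37% to 13.5% of all genes. The labels give the groups no replicate numbers, so no number pairs the samples. With the pairs matched for plasmid and TGF as a block 10 genes were called, the tenth being Mrps6, which fell. The cause of these shifts was not tested. The median of the 69 genes relative to all genes kept its side in every alternative for the genotype that could move it. Equal medians, the matched pairs as a block and the fit with no covariates could not move it. Within the single matched pair of pCMV6 with N it lay on the other side. None of the 9 genes went below 0 in any alternative, but they were picked as higher in these same libraries, so their sign was close to fixed. For TGF, plasmid or an interaction 0 of the 69 were called in any alternative. Of the 69 genes 25 averaged under 5 CPM, and the SE of the genotype log2 fold change reached 0.218, which limits what this depth can show.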
